A study of Mus musculus with 37 samples.

Results

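The 150 transcripts described here reached a brief maximum in early 2-cell mouse embryos. They were chosen by their measured level at 5 stages from a table of 55401 genes, averaged over control and Bap1 knockout libraries. For each gene the mean log2(FPKM + 1) of the 2 genotypes was formed at each stage, and the early 2-cell level minus the highest of the levels in fully grown oocytes, MII eggs, late 1-cell and late 2-cell embryos gave its score. The 150 genes with the largest positive score were kept, after 599 symbols of mitochondrial genes, Snor genes, histones and well-known 2-cell families (among them Zscan4, Obox, Tdpoz, Tcstv, Prame, Dux and Zfp352) had been left out. Of the remaining genes, 6496 scored above 0. The scores therefore describe how the genes were chosen, and the rise and fall over the stages is given below without a test. The difference between knockout and control was not used in the choice.

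Levels were available as FPKM (a fragment count corrected for gene length and library size) for 37 libraries, 26 of total RNA from the first stages and 11 of poly(A) RNA from the embryo at embryonic day 6.5. Controls (CTR) were oocytes of Bap1 flox/flox females and the embryos those oocytes gave after fertilization. Knockouts (KO) were oocytes of Gdf9-iCre, Bap1 flox/flox females, in which the Gdf9 promoter drives the recombinase in oocytes, and the maternal knockout (matKO) embryos they gave. The floxed alleles were thus present in both groups, and the males were wild type, B6 for the early embryos and PWK for embryonic day 6.5, so that every matKO embryo inherited an intact paternal Bap1 allele. For controls there were 3 early 2-cell (E2C) libraries and 2 each of fully grown oocytes (FGO), MII eggs, late 1-cell (L1C) and late 2-cell (L2C) embryos, while the knockouts had 3 at each of these stages. Epiblast and visceral endoderm had 2 libraries per genotype, and extraembryonic ectoderm had 1 control and 2 matKO libraries. Embryos were kept in KSOM medium. The labels do not say whether replicates came from separate animals or how many oocytes or embryos each library pooled, so p-values measure the spread between these libraries, which may be technical.

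The mouse oocyte stores RNA and stops transcription before ovulation, and the zygotic genome is switched on in steps, weakly in the 1-cell and early 2-cell embryo and broadly in the late 2-cell embryo. Some genes that respond in the first steps are transcribed for only part of the second cell cycle and are then shut off, while stored maternal RNA is degraded over the same period. BAP1 is the catalytic subunit of the Polycomb repressive deubiquitinase complex, which removes ubiquitin from histone H2A.

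Bap1 itself ranged from 16.3 to 29.9 FPKM in the early control libraries. It measured 3.76 to 7.05 FPKM in the knockout libraries from FGO to E2C and 9.69 to 11.7 FPKM in L2C, where the controls measured 20.9 to 24.4 FPKM. FPKM summed to between 300668 and 430784 per early library. Read counts cannot be recovered from FPKM, so how deeply each library was sequenced cannot be stated, and values carry no interval for counting. Among 10 genes of cumulus and granulosa cells, at most 2 reached 1 FPKM in any early library. Their sum at the 5 stages was 4.00 to 9.40 FPKM in controls and 2.2 to 3.98 FPKM in knockouts.

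The set was a mixture of 2 kinds of transcript, and the name transient early 2-cell transcript fitted the first better than the second. In 63 members the averaged level stayed under 1 FPKM in FGO, MII eggs and L1C embryos, a boundary set after the values were seen, and these appeared in E2C. The other 87 were already in the oocyte or zygote and were higher for a time. E2C levels, averaged over the 2 genotypes, ran from 0.807 to 47.9 FPKM (median 2.29) in the first kind and from 2.47 to 6573 FPKM (median 33) in the second. Predicted or clone-named gene models made up 55 of the 63, and 86 of all 150. By GENCODE M21 the 150 held 76 protein-coding genes, 31 processed and 13 unprocessed pseudogenes, 6 lincRNAs and 5 antisense transcripts, and 64 had a single exon block. The stage with the next highest level was L2C for 76 members, L1C for 50, FGO for 18 and MII for 6. Scores ran from 2.01 for Gm8711 to 0.62 for Cdc34b, with a median of 0.77, and 37 members scored at least 1. At the edge of the choice, Gm13752 and Cdc34b scored 0.6194 and 0.6189, and the next genes outside, Gm23646 and Gm6477, scored 0.6179 and 0.6178. Of the left-out symbols, 18 would have ranked among the 150, led by AW822073, Duxf3 and Zscan4c.

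Many members shared exonic sequence with each other or with other genes, which limits how far their reads can be assigned. The exonic sequence was cut into words of 50 bases, and the share of words also found in other annotated genes had a median of 39.8% in the 63 members absent before and 6.41% in the other 87. Words were matched on either strand, so genes that overlap at the same place count as sharing, as well as copies. In 13 groups, 42 members were linked because at least 1 gene of a pair shared 10% or more of its words with the other. In 9 genomic clusters lay 38 members. How reads with several matching positions were counted is not given in the sources used here. The Eif4a3 copies show the case best. Eif4a3, which is not a member, encodes the RNA helicase of the exon junction complex, a protein assembly left on spliced mRNA. Eif4a3l1 (chr6:136327539-136329983, + strand) and Eif4a3l2 (chr6:116551141-116552502, + strand) are protein-coding members with coding sequences of 1233 bases, the length of that of Eif4a3. Without gaps, Eif4a3l1 differed from Eif4a3 at 47 positions (96.2% identity), Eif4a3l2 at 40 positions (96.8%), and the 2 copies from each other at 18 positions (98.5%). The first 90 coding bases from GENCODE M21 are printed here as an example, with capitals at the positions that are not the same in all 3 genes. Differences from Eif4a3 are denser in this stretch than over the whole coding sequence.
Eif4a3: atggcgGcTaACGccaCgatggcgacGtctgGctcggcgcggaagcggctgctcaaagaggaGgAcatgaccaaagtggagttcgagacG
Eif4a3l1: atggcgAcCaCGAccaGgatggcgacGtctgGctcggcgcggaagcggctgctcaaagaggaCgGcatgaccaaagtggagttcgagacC
Eif4a3l2: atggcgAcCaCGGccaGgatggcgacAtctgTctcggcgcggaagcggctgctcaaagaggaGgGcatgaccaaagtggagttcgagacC

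The promoters of the 2 kinds also differed in composition, as far as RefSeq windows from 250 bases before to 50 bases after the start site (GRCm38.p6) were given. They matched 65 members, 14 absent before and 51 present before. The median GC content was 45.7% in the 14, 60.3% in the 51 and 52.8% over 27025 genes, and the median number of CpG dinucleotides was 2.50, 21.5 and 7.00. The letters GGATTA, the core bound by OBOX and CRX homeodomain proteins, were found on either strand in 4 of the 14 (28.6%), in 2 of the 51 (3.92%) and in 8.14% of all genes. CCAAT, the box bound by NF-Y, was in 71.4% of the 14, 37.3% of the 51 and 41.1% of all genes. CCGGAAG, an ETS core, was in 1 of the 14, in 25.5% of the 51 and in 9.93% of all genes, and GGGCGG, an SP and KLF core, in 28.6%, 58.8% and 38.2%. TATAAA was in 2 of the 14 and 5 of the 51, AAGGTCA (NR5A2) in 0 and 2, and the DUX motif in no member and in 0.0407% of all genes. These are letter matches in a fixed window and not measured binding. The 14 are only a part of the 63 members absent before. They include copies of 1 family, among them Usp17la and Usp17ld, so their promoters are not independent and the shares may be raised by copies. The CpG-poor promoter of Eif4a3l1 and the CpG-rich promoter of Magoh stand for the 2 kinds. The stretch for Eif4a3l1 is chr6:136327429-136327538 (+ strand), with capitals for GGATTA and CCAAT on either strand, and that for Magoh is chr4:107879645-107879754 (+ strand), with capitals for its 9 CpG. Both end 1 base before the start site.
Eif4a3l1 promoter: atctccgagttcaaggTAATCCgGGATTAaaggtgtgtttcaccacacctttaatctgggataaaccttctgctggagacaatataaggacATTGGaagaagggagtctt
Magoh promoter: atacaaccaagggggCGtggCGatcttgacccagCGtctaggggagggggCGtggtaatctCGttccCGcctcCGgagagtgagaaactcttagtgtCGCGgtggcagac

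A pair of Usp17-like genes is shown for a different reason, since these near-identical stretches belong to a gene that was called higher in L2C knockout embryos and to another that was not, as given further on. Usp17la, Usp17le and Usp17ld belong to a multi-copy family of ubiquitin-specific proteases on chromosome 7. The stretches are chr7:104856916-104856985 (+ strand) for Usp17la and chr7:103252600-103252669 (- strand) for Usp17ld. Capitals mark CCAAT on the other strand (ATTGG) and TATAAA.
Usp17la: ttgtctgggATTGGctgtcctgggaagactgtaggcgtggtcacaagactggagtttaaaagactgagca
Usp17ld: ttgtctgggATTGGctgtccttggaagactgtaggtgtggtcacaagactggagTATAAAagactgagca
Over these 70 positions the 2 were 95.7% identical. Counted from the first base printed, with the base of Usp17la first, the differences were G22T, C36T and T56A, and the last of these completes TATAAA in Usp17ld. The stretch lies 100 to 31 bases before the annotated start of Usp17la and 164 to 95 bases before that of Usp17ld.

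In control embryos the set rose into E2C and was largely gone, or back to its oocyte level, by L2C. The control mean was highest in E2C for 149 of 150 members. From L1C to E2C the median rise was 0.97 on the log2(FPKM + 1) scale in controls and 1.03 in knockouts, and from E2C to L2C the control median fell by 1.37. Between 82 and 91 members reached 1 FPKM in each library from FGO to L1C, 131 to 139 in the E2C controls and 94 or 95 in the L2C controls. Every control E2C library exceeded every control L2C library for 137 members. Members were chosen in part on the levels at these stages, so the choice itself favours a high count. The share over all genes was not counted.

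**Figure D1:**
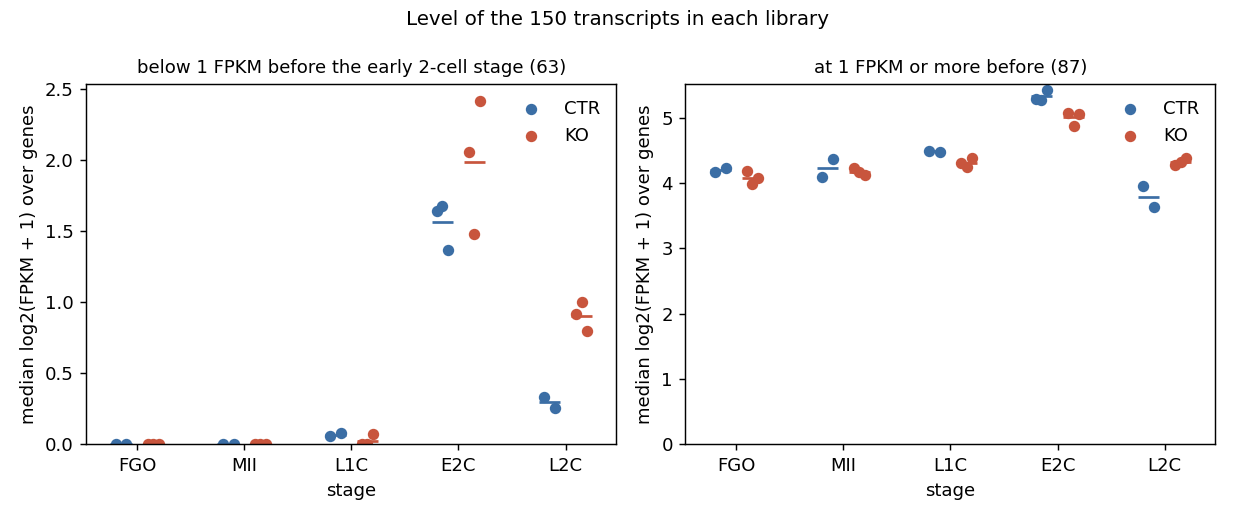
Median log2(FPKM + 1) in each library at 5 stages, over the 63 members under 1 FPKM before E2C (left) and the 87 members at 1 FPKM or more before (right); points are libraries and short bars are group means, blue for CTR and red for KO. In L2C the KO libraries sit at 0.80 to 1.00 against 0.26 and 0.33 in CTR on the left, and at 4.28 to 4.38 against 3.64 and 3.95 on the right.

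Knockout embryos also peaked in E2C but came down less. FPKM are relative to each library, so neither the rise nor the fall in either genotype is an amount per embryo. FPKM over all genes summed to 404518 and 430784 in the L2C controls and to between 371188 and 381737 in L2C knockouts. In knockouts the mean was highest in E2C for 135 members, in L2C for 14 and in FGO for 1. The knockout median fell by 0.72 from E2C to L2C. A fall of at least 1 log2 unit was seen in 110 members in controls and in 48 in knockouts. The share of all genes with such a fall was not counted. The knockout L2C mean lay between the control L2C and control E2C means for 121 members, above the control E2C mean for 8, and at or below the control L2C mean for 21. Between 114 and 117 members reached 1 FPKM in the L2C knockout libraries. Since the libraries are bulk samples, fewer cells that hold a transcript and less of it in each cell cannot be told apart.

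Named members with the highest scores included splicing and exon junction genes, ubiquitin proteases and a 7SL RNA copy. Snrpf, a Sm protein of the spliceosomal snRNPs, measured 62.6 and 64.3 FPKM in L1C controls, 178, 206 and 169 FPKM in E2C controls and 79.9 and 62.1 FPKM in L2C controls. Magoh, a core subunit of the exon junction complex, measured 312 and 338 FPKM in L1C controls, 788, 884 and 675 FPKM in E2C controls and 255 and 255 FPKM in L2C controls. Both were stored in the oocyte and came back down after E2C. Of the words of Snrpf, 58.5% are shared with the annotation of Ccdc38. Rn7s2, a copy of the 7SL RNA of the signal recognition particle, went from 16.8 and 20.9 FPKM in L1C controls to 148, 161 and 175 FPKM in E2C controls, with 55.2 and 69.5 FPKM in L2C controls. All of its words are shared with other genes, so its value may be that of several copies. Usp17la was listed at 0 in both FGO and both MII control libraries, measured 0.239 and 0.661 FPKM in L1C controls and 19.5, 14.6 and 15.2 FPKM in E2C controls, and fell to 3.50 and 2.72 FPKM in L2C controls. Eif4a3l1 stayed between 0.0753 and 0.267 FPKM in all control libraries before E2C and reached 25.4, 31.2 and 20.7 FPKM there. Usp17la and Eif4a3l1 thus went from under 1 FPKM to their maximum in E2C and were lower again in L2C controls.

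Before E2C, calls between genotypes were few among the members in FGO and MII eggs and more frequent in L1C, where most were lower in knockouts. In FGO, limma with Benjamini-Hochberg adjustment over all genes tested (threshold 0.05) called 1 of 86 tested members higher in knockouts and 4 lower, where 1.34% and 7.0% of all genes were called (8.34% in either direction). In MII eggs it called 2 of 87 higher and 5 lower (4.17% and 7.84% of all genes), and in L1C embryos 3 of 84 higher and 15 lower, the latter 17.9% of those tested (6.22% and 8.71% of all genes). The predicted antisense transcript Gm42560 was called higher at each of the 3 stages, joined in MII by Gm47913 and in L1C by Skap2 and Gm14269. Cth, Msl3, Gm48775 and Gm13752 were called lower at each of the 3 stages, joined in MII and L1C by Gm45410. The other members called lower in L1C were Smco4, Ube2d1, Tcl1b2, Ccndbp1, Zbed3, Gm10226, Ube2d3, Lef1, Hmgb1-ps4 and Arntl. Of the 15 called lower in L1C, 4 had been called lower in FGO, 5 were called lower again in E2C and 2 in L2C, while 5 (Smco4, Tcl1b2, Zbed3, Ube2d3 and Arntl) were called higher in L2C. Ube2d3, for example, changed by -0.50 ± 0.06 (SE) in L1C, with an adjusted p of 0.00374 (limma). These genes were singled out after their values were seen. These counts moved when single libraries were left out. In FGO they were 1 without either control and 12 without knockout replicate 1, in MII 3 and 2 without control replicates 1 and 2, and in L1C 6 and 5 without control replicates 1 and 2 and 11 without knockout replicate 2. Cth encodes cystathionine gamma-lyase, which makes cysteine from cystathionine, and Msl3 a subunit of the male-specific lethal histone acetyltransferase complex.

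In E2C, where the set is at its maximum, the genotypes were close. All 150 members could be tested, and limma called 4 higher and 6 lower in matKO, against 4.25% and 5.87% of all genes tested. The median difference was -0.09 over the members and 0.03 over all genes. All matKO libraries exceeded all control libraries for 10 members and were below them for 24, while 116 overlapped, and such separation occurred in 17.5% and 16.3% of all genes tested. By kind, the median difference was 0.14 in the 63 members absent before and -0.14 in the 87 present before. Without matKO replicate 2, whose members' levels were the lowest of the 3 matKO libraries, the median over all members was 0.01.

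**Figure D2:**
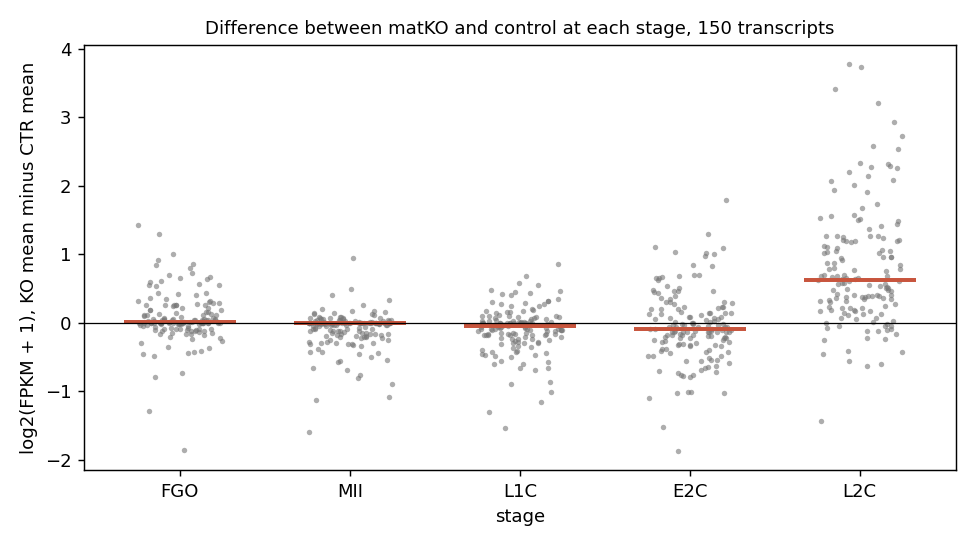
Difference between KO and CTR group means of log2(FPKM + 1) for each of the 150 members (grey points) at 5 stages, with the median as a red bar. The medians are 0.02, -0.01, -0.05 and -0.09 from FGO to E2C and 0.63 in L2C.

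The 4 members that rose in E2C matKO embryos were all predicted gene models. Gm10807 (chr10:58227857-58228651, - strand), annotated as an unprocessed pseudogene, measured 2.16, 2.72 and 2.77 FPKM in E2C controls and 9.58, 11 and 13.4 FPKM in matKO. The groups did not overlap, and the change was 1.79 ± 0.19 (SE) with an adjusted p of 0.00181 (limma). It shares 73.1% of its words with Duxf3, a Dux repeat gene outside the set, which measured 5.52, 3.31 and 5.75 FPKM in controls and 19.2, 22.2 and 27.5 FPKM in matKO, so reads of the 2 may not be separable. Gm42560 rose by 0.70 ± 0.14 (SE), the antisense model Gm15629 by 0.68 ± 0.16 (SE) and Gm8947 by 1.00 ± 0.26 (SE). Their adjusted p values (limma) were 0.021, 0.0312 and 0.0467. Gm15629 shares 40.3% of its words with Lcp1, and whether counting used the strand is not given in the sources used here, so reads of antisense models and of the genes they overlap cannot be told apart. Leaving out control replicate 1, control replicate 2 or matKO replicate 1 left Gm10807 as the 1 member called higher, and without matKO replicate 3 there were 2 calls.

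The 6 members that fell in E2C included maternal RNAs that were low from the oocyte on. Cth measured 43.6, 35.1 and 38.5 FPKM in E2C controls and 12.2, 8.95 and 8.92 FPKM in matKO, a change of -1.87 ± 0.16 (SE) with an adjusted p of 0.000549 (limma). Its changes at the earlier stages were -1.86 ± 0.27 (SE) in FGO, -1.60 ± 0.34 (SE) in MII and -1.54 ± 0.13 (SE) in L1C, and -1.43 ± 0.32 (SE) in L2C, with adjusted p of 0.0118, 0.0287, 0.000928 and 0.00919. No knockout library reached the lowest control library at any of the 5 stages. Leaving out FGO control replicate 1, either MII control or MII knockout replicate 2, or L2C control replicate 1 ended the call at that stage, with adjusted p from 0.0708 to 0.196 (limma). Smco4, which encodes a small predicted membrane protein, changed by -1.09 ± 0.17 (SE), Msl3 by -1.01 ± 0.12 (SE) and Skap2, an adaptor of Src family kinases, by -0.48 ± 0.13 (SE). The adjusted p values (limma) were 0.0085, 0.003 and 0.0478, and the last of them was lost whichever library of the stage was left out. The lincRNA Gm48775 changed by -1.51 ± 0.21 (SE) and the antisense model Gm13752 by -1.02 ± 0.13 (SE), with adjusted p of 0.00478 and 0.00414 (limma).

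In L2C, most members that had come down in controls were higher in matKO embryos. The median difference over all 150 was 0.63, against 0.03 over all genes tested, and 129 members lay above 0. It was 0.58 in the 63 members absent before and 0.65 in the 87 present before. With FPKM rescaled to a common library total the median was 0.95 over the members and 0.15 over all genes. Every matKO library exceeded every control library for 95 members and was below for 8, where 31.6% and 30.6% of all genes tested separated in this way. These member counts took in all 150, of which 35 were not tested and 27 were tested without reaching 1 FPKM in both controls. Members near 0 in the controls could hardly lie below them. This also bears on the 129 above 0 and on the median of the 63, so the shares are not like for like.

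Counts of calls in L2C depend on which members could be tested. Limma called 76 of 115 tested members higher in matKO and 2 lower, against 19% and 19.5% of all genes. Of the rest, 35 members were not tested because fewer than 2 libraries reached 1 FPKM. The count that does not rest on matKO libraries for its filter takes the 88 members at 1 FPKM or more in both controls, of which 55 were called higher (62.5%), 2 lower and 31 in neither direction. Of all genes at that level in both controls, 18.4% were called higher and 22.8% lower. The 27 tested members that reached the filter through matKO libraries had to be higher there, and their 21 calls support nothing. Among 47 members at that control level with under 10% of their words shared with another gene, 33 were called higher and 2 lower.

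**Figure D3:**
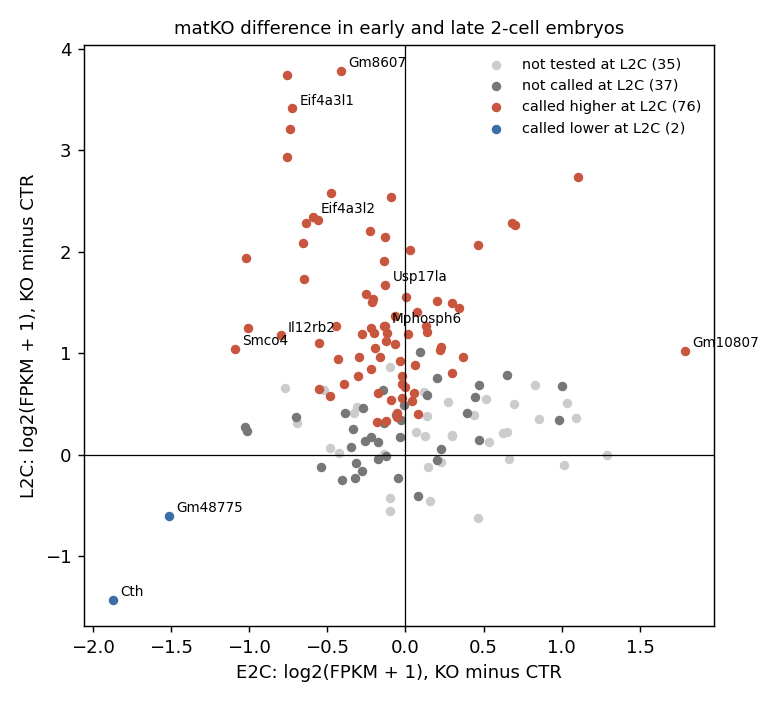
Difference between KO and CTR in E2C (horizontal) and in L2C (vertical), in log2(FPKM + 1), for the 150 members; colours give the limma call in L2C (76 higher, 2 lower, 37 not called, 35 not tested). Most points lie above the horizontal line at 0 and within 1 log2 unit of the vertical one.

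Copies of Eif4a3 showed some of the largest L2C differences. Eif4a3l1 measured 1.99 and 1.83 FPKM in L2C controls and 38.1, 27.4 and 25.9 FPKM in matKO, and so was as high in late matKO embryos as in early controls. The change was 3.41 ± 0.19 (SE) with an adjusted p of 5.21e-05 (limma). Eif4a3l2 measured 2.54 and 1.97 FPKM in controls and 18.4, 16.4 and 12.2 FPKM in matKO, a change of 2.34 ± 0.20 (SE) with an adjusted p of 0.000235 (limma). The pseudogene Gm5576, which shares 26.6% of its words with Eif4a3l2, rose by 2.08 ± 0.24 (SE). Eif4a3 itself did not follow its copies: it measured 51.5 and 43.6 FPKM in L2C controls and 32.4, 33.7 and 33.3 FPKM in matKO, a change of -0.50 ± 0.11 (SE) with an adjusted p of 0.00881 (limma). In E2C, Eif4a3 measured 11.9 to 17.2 FPKM in controls and 12.8 to 21.6 FPKM in matKO.

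Usp17 genes did not all behave alike. Usp17la measured 3.50 and 2.72 FPKM in L2C controls and 13.9, 12.5 and 10.1 FPKM in matKO, a change of 1.67 ± 0.19 (SE) with an adjusted p of 0.000548 (limma). Usp17le measured 4.33 and 6.95 FPKM in controls and 22.6, 13.0 and 15.9 FPKM in matKO, a change of 1.44 ± 0.25 (SE) with an adjusted p of 0.0034 (limma). The groups did not overlap for either gene. Usp17ld, whose promoter stretch is printed above beside that of Usp17la, measured 6.37 and 9.30 FPKM in controls and 8.19, 6.03 and 8.22 FPKM in matKO, with overlapping groups and a change of -0.05 ± 0.21 (SE) (adjusted p = 0.867, limma). In E2C controls Usp17ld had measured 16.6, 14.8 and 12 FPKM, close to Usp17la. The difference between the 2 genes in their response was not tested. The share of words found in other genes was 20.1% for Usp17la, 29.8% for Usp17le and 51.1% for Usp17ld. For Usp17ld, 50.4% are shared with Usp17lc, which is not a member, so reads may not be assigned to the right copy.

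A cluster of gene models on chromosome 12 showed differences of the same order as the Eif4a3 copies. Gm8607, Gm5039, Gm2035 and Gm48389 share words with each other and lie between 87266479 and 88324026 together with Ahsa1 and 2 further models. They also share words with genes outside the set, among them Gm2075, Gm8332 and BB287469. The share of words found in other genes was 70.9% for Gm8607, 17.3% for Gm5039, 76.4% for Gm2035 and 54.4% for Gm48389. Their values may therefore be those of several copies. Gm8607 measured 2.36 and 4.60 FPKM in L2C controls and 67.7, 46.1 and 64.4 FPKM in matKO, a change of 3.78 ± 0.24 (SE), and Gm5039 measured 2.12 and 2.35 FPKM in controls and 51.9, 37.3 and 38.9 FPKM in matKO, a change of 3.74 ± 0.17 (SE). The adjusted p values (limma) were 9.57e-05 and 3.12e-05. Gm2035 rose by 3.21 ± 0.16 (SE). Gm48389 averaged 0.116 FPKM in controls and 3.68 FPKM in matKO, so it passed the filter through its matKO libraries and its call carries no weight. The copies on chromosomes 5, 1 and 10 (among them Gm6502, Gm47996 and Gm8711) were mostly under 1 FPKM in L2C and not tested, and Gm8711, at a mean of 0.132 FPKM in controls and 1.75 FPKM in matKO, was tested because of its matKO libraries.

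**Figure D4:**
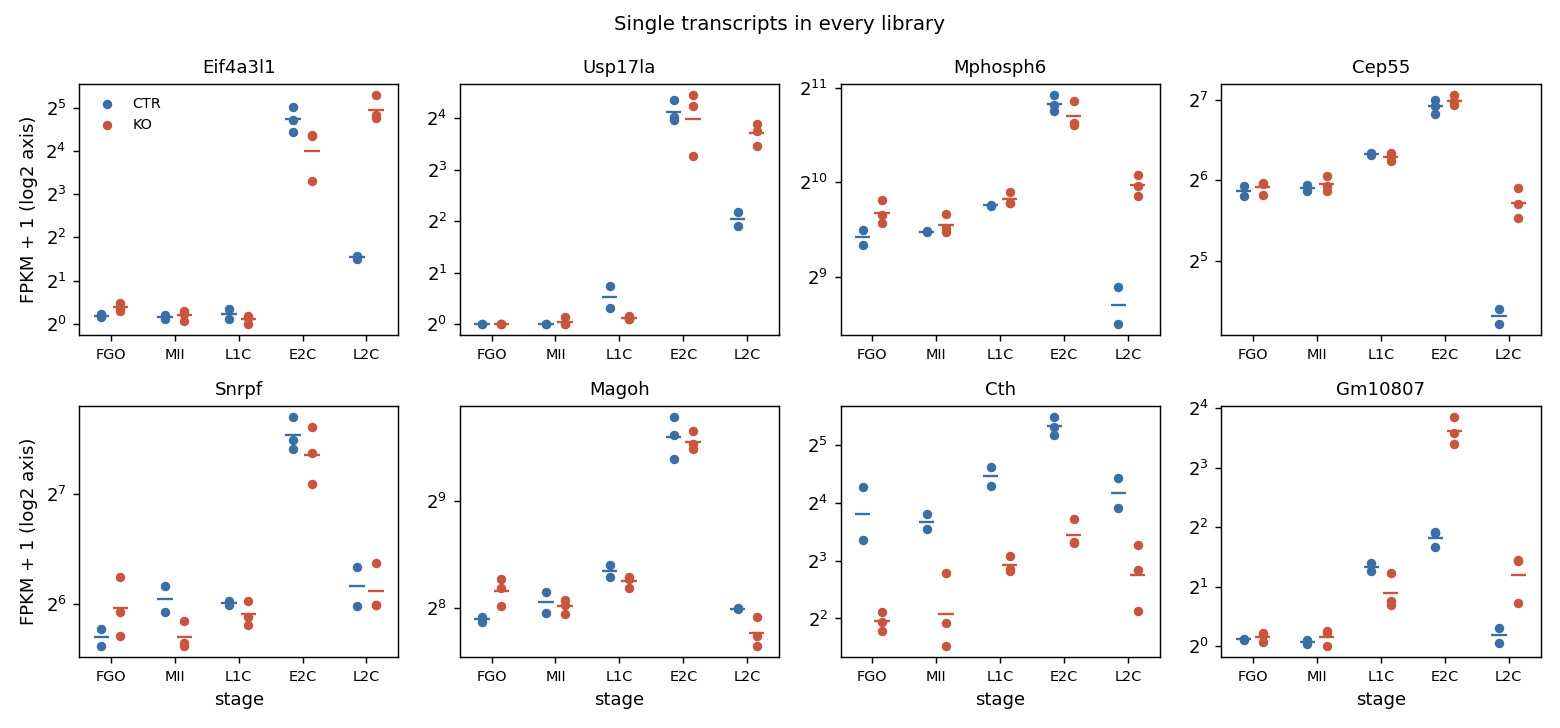
FPKM + 1 on a log2 axis in every library at 5 stages for 8 members; points are libraries, short bars are geometric means, blue for CTR and red for KO. Eif4a3l1, Usp17la, Mphosph6 and Cep55 separate in L2C, Snrpf and Magoh fall from E2C to L2C in both genotypes, Cth is lower in KO throughout, and Gm10807 is higher in KO in E2C and L2C.

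Among RNAs present before E2C, 46 of the 78 members at 1 FPKM or more in both L2C controls were called higher in matKO (59.0%). Another 2 were called lower (2.56%). Of all genes at that control level, 18.4% were called higher and 22.8% lower. Among genes outside the set that fell by at least 1 log2 unit from E2C to L2C, 55.0% were called higher. The members present before still came down in matKO, by a median of 0.69 from E2C to L2C over all 87. Mphosph6, a cofactor of the nuclear RNA exosome, measured 1727, 1937 and 1799 FPKM in E2C controls and 1561, 1577 and 1849 FPKM in E2C matKO. In L2C it measured 477 and 363 FPKM in controls and 998, 1081 and 929 FPKM in matKO, a change of 1.26 ± 0.13 (SE) with an adjusted p of 0.000363 (limma). The groups lay far apart, as they did for the genes that follow. Cep55, which acts at the midbody in cell abscission, measured 20.1 and 17.5 FPKM in L2C controls and 45.2, 58.9 and 51.4 FPKM in matKO, a change of 1.41 ± 0.14 (SE) with an adjusted p of 0.00031 (limma). Pigf, an enzyme of GPI anchor synthesis, measured 36.4 and 34.5 FPKM in controls and 99.2, 87.5 and 92.5 FPKM in matKO, a change of 1.36 ± 0.10 (SE) with an adjusted p of 0.00014 (limma). Ift43, a subunit of the intraflagellar transport A complex, rose by 1.25 ± 0.16 (SE) and Eny2, a subunit of the SAGA and TREX-2 complexes, by 1.06 ± 0.17 (SE), with adjusted p of 0.000898 and 0.00218 (limma). None of these genes was called in E2C. Of the words of Pigf, 28.3% are shared with Rhoq.

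Further members, chosen after their values were seen, cover ubiquitin conjugation, transcription and oocyte proteins. Ube2d3, a ubiquitin-conjugating enzyme, measured 176 and 201 FPKM in L2C controls and 446, 422 and 428 FPKM in matKO, a change of 1.19 ± 0.09 (SE, adjusted p = 0.000152, limma). Dpy30, a shared subunit of the COMPASS histone methyltransferases, measured 50.8 and 47.7 FPKM in controls and 103, 117 and 105 FPKM in matKO, a change of 1.12 ± 0.10 (SE). Smaller rises were called for Brd7, a chromatin remodeller subunit (0.61 ± 0.13, SE), Med30 of Mediator (0.69 ± 0.21, SE), the RNA polymerase II subunit Polr2c (0.40 ± 0.10, SE) and the clock factor Arntl (0.33 ± 0.10, SE). The Med30 change was 0.39 without control replicate 1 and was then not called. Without single libraries the calls of Polr2c, Arntl and Brd7 could also be lost (Brd7 without control replicate 1, adjusted p = 0.0551, limma; Polr2c without control replicate 2 or matKO replicate 3; Arntl without any library but matKO replicate 1). Tcl1b1 and Tcl1b2, members of the TCL1 family of AKT co-activators, rose by 1.09 ± 0.22 (SE) and 1.20 ± 0.14 (SE). Of the words of Polr2c, 26.1% are shared with other genes, and of those of Tcl1b2, 24.0%.

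Among the most abundant members, the differences ranged from small to large. Zbed3, a zinc finger protein of the oocyte cortical complex, measured 6666, 6386 and 7932 FPKM in E2C controls. In L2C it measured 1652 and 1639 FPKM in controls and 1855, 2231 and 2099 FPKM in matKO, a change of 0.32 ± 0.10 (SE) with an adjusted p of 0.037 (limma), which was lost on leaving out any of the 5 libraries but matKO replicate 1. E330034G19Rik, at 2022, 1928 and 2275 FPKM in E2C controls, measured 214 and 189 FPKM in L2C controls and 819, 893 and 738 FPKM in matKO, a change of 2.01 ± 0.11 (SE). Pttg1, the securin that holds sister chromatids until anaphase, rose by 0.77 ± 0.09 (SE), and Rfpl4, an oocyte RING-finger-like protein, by 1.03 ± 0.10 (SE). The pseudogene Gm11448, which shares 25.7% of its words with Mphosph6, rose by 1.91 ± 0.22 (SE).

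Other members present before E2C were not called in L2C, and 6 of them are given here, singled out after their values were seen. Snrpf measured 79.9 and 62.1 FPKM in L2C controls and 81.9, 62.5 and 62.4 FPKM in matKO, with a difference of -0.04 ± 0.16 (SE). Magoh measured 255 and 255 FPKM in controls and 242, 199 and 213 FPKM in matKO, with a difference of -0.23 ± 0.10 (SE), and Snrpe 61.3 and 59.3 FPKM against 68.3, 60.9 and 68.1 FPKM, with a difference of 0.12 ± 0.10 (SE). Snrpd3, another Sm protein, differed by -0.41 ± 0.18 (SE) and the spliceosome component Syf2 by -0.01 ± 0.09 (SE). Rn7s2 differed by -0.16 ± 0.12 (SE). None of the 6 passed the test in limma (adjusted p from 0.105 to 0.942), which does not show that the genotypes were alike. For Magoh every matKO library was below both controls, and without matKO replicate 1 its change was -0.30 with an adjusted p of 0.0331 (limma). Snrpd3 passed the test where all 26 libraries shared 1 spread (adjusted p = 0.0137, limma).

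The 2 members called lower in L2C were Cth and Gm48775. Cth measured 20.6 and 14.1 FPKM in L2C controls and 3.39, 8.59 and 6.16 FPKM in matKO. Gm48775 measured 14.4 and 13.0 FPKM in controls and 7.58, 11.4 and 7.56 FPKM in matKO, a change of -0.60 ± 0.20 (SE) with an adjusted p of 0.0408 (limma), which was lost on leaving out any of the 5 libraries but matKO replicate 2. Both genes had been called lower at all 4 earlier stages. Without L2C control replicate 1 neither passed the test, and without control replicate 2 or matKO replicate 3 there was 1 call.

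Whether the genotype difference itself changed between stages was tested as an interaction, in which all 150 members took part. From E2C to L2C the change was positive and called for 59 members and negative for 0 (unadjusted p under 0.05 for 2), against 9.33% and 8.21% of all genes tested. The median was 0.73 over the members and 0.04 over all genes, and 122 members lay above 0. By kind, 16 of the 63 members absent before and 43 of the 87 present before were called. Leaving out single libraries gave between 49 and 58 positive calls. From L1C to E2C only Skap2 (-0.78 ± 0.14, SE, adjusted p = 0.0256, limma) and Gm10807 (2.22 ± 0.31, SE, adjusted p = 0.00933, limma) were called, 2 of 150 against 1.21% of all genes (0.454% positive and 0.752% negative). The Skap2 call was lost without either L1C control, L1C knockout replicate 2 or E2C control replicates 1 or 2 (adjusted p from 0.0567 to 0.0913, limma), and without E2C control replicate 1 no member was called.

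Named members with the largest E2C to L2C change had a lower mean in matKO than in control in E2C and a higher one in L2C. Eif4a3l1 measured 25.4, 31.2 and 20.7 FPKM in E2C controls and 19.2, 8.85 and 19.7 FPKM in E2C matKO, where its difference was not called, and its interaction was 4.14 ± 0.38 (SE) with an adjusted p of 0.000107 (limma). Eif4a3l2 had an interaction of 2.93 ± 0.52 (SE) with an adjusted p of 0.00294 (limma). Smco4 turned from lower to higher. It measured 89.8, 97.3 and 125 FPKM in E2C controls against 51.6, 39.0 and 54.4 FPKM in matKO, and 21.2 and 13.3 FPKM in L2C controls against 26.3, 49.9 and 34.8 FPKM in matKO. In matKO embryos it therefore fell little between the 2 stages, and the interaction was 2.14 ± 0.36 (SE) with an adjusted p of 0.00231 (limma). Il12rb2, a chain of the interleukin 12 receptor, measured 4.11, 6.13 and 6.54 FPKM in E2C controls and 2.34, 3.72 and 2.34 FPKM in E2C matKO. In L2C it measured 0.876 and 0.386 FPKM in controls and 2.46, 3.16 and 2.36 FPKM in matKO. The interaction was 1.97 ± 0.33 (SE) with an adjusted p of 0.00223 (limma). Of the words of Il12rb2, 38.0% are shared with Serbp1, so reads of the 2 may not be separable.

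A smaller fall in matKO was also seen outside the 150. Of 1134 other genes that were at least 1 log2 unit lower in L2C than in E2C, averaged over genotypes, 874 were at 1 FPKM or more in both L2C controls, and limma called 481 of these higher in L2C matKO (55.0%) and 15 lower. Of all genes at 1 FPKM or more in both L2C controls, 18.4% were called higher and 22.8% lower. Of all 1134, 305 had a positive interaction (26.9%, against 9.33% of all genes tested) and 8 a negative one (0.705%, against 8.21%). In E2C, 98 of them were called higher (8.64%, against 4.25% of all genes) and 53 lower (4.67%, against 5.87%). Of the 96 genes of the left-out 2-cell families, 2 of 51 tested in E2C were called higher (3.92%, against 4.25% of all genes) and 15 lower (29.4%, against 5.87%). In L2C, 20 of the 47 at 1 FPKM or more in both controls were called higher (42.6%, against 18.4%) and 9 lower (19.1%, against 22.8%). The families were thus split. Zscan4f changed by 2.37 ± 0.14 (SE) in L2C and Obox8 by -2.73 ± 0.19 (SE). In controls Obox8 did not fall but went from a mean of 2.00 FPKM in E2C to 56.6 FPKM in L2C. No test of the difference between these groups and the members was made.

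**Figure D5:**
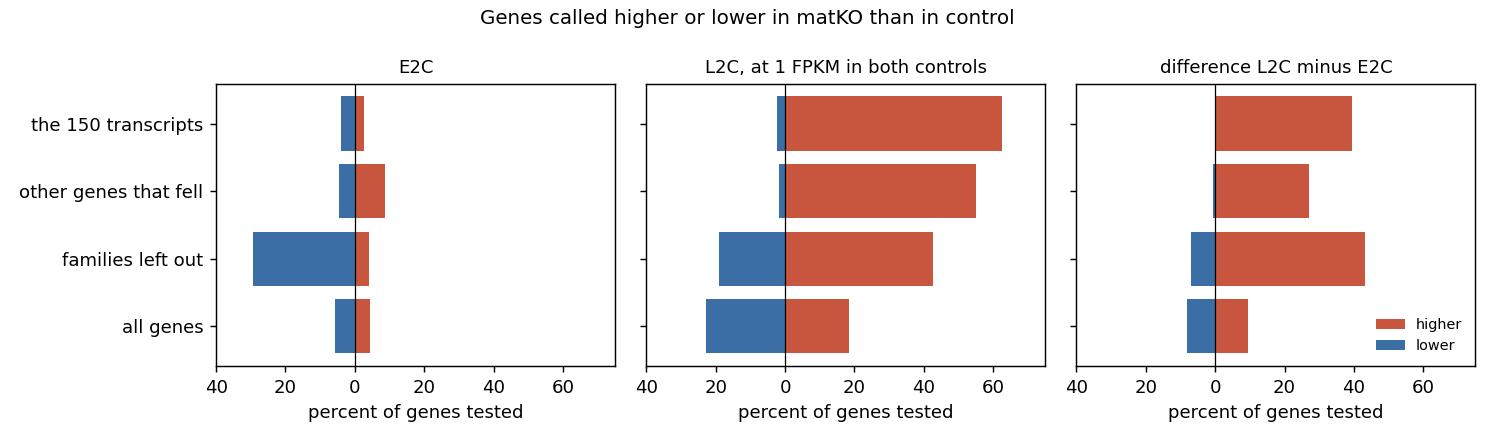
Share of tested genes called higher (right, red) or lower (left, blue) in KO than in CTR, in E2C, in L2C and for the change between them, by limma at an adjusted p under 0.05; the L2C panel holds only genes at 1 FPKM or more in both controls. In that panel the share called higher is 62.5% for 88 of the 150 members, 55.0% for other genes that fell and 18.4% for all genes.

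Among genes known to act on the 2-cell programme, the regulators held a larger share of lower calls in L2C than all genes did, and the repressors did not. Of 17 regulators outside the left-out families, 1 was called higher and 3 lower in E2C matKO (5.88% and 17.6%, against 4.25% and 5.87% of all genes), and 2 higher and 9 lower in L2C (11.8% and 52.9%, against 19% and 19.5% of all genes). Among them Dppa4, which acts with Dppa2 on Dux, changed by -1.93 ± 0.27 (SE) in E2C and -1.76 ± 0.14 (SE) in L2C, and Nfya, a subunit of the CCAAT-binding NF-Y complex, by 1.26 ± 0.14 (SE) in E2C. Of 18 repressors of 2-cell genes, 1 was called higher (Lin28a) and 0 lower in E2C, and 1 higher (Max) and 3 lower (Mga, Rif1 and Trim28) in L2C, which is 5.56% and 16.7%. Of 14 genes of zygotic mRNA decay, 6 were called higher (42.9%) and 3 lower (21.4%) in L2C. Cnot7, a deadenylase of the CCR4-NOT complex, changed by 1.14 ± 0.11 (SE), Btg4, its adaptor in the egg, by 0.61 ± 0.08 (SE), and Dis3, the exosome nuclease, by -1.31 ± 0.15 (SE).

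Summed levels of other marker genes also differed between genotypes in L2C. The summed level of 9 oocyte markers was 505 to 529 FPKM in L2C controls and 827 to 959 FPKM in L2C matKO, while in E2C it was 1020 to 1334 FPKM and 965 to 1259 FPKM. All 9 were at 1 FPKM or more in some library of each of these groups. The summed level of 8 genes activated in late 2-cell and later embryos was 118 to 128 FPKM in L2C controls and 93.3 to 117 FPKM in matKO, against 48.9 to 66.5 FPKM and 58.9 to 62.1 FPKM in E2C. Such a sum can rest on few genes and does not show that all of them moved. Nr5a2, which is 1 of these 8 and also among the regulators above, averaged 36.5 FPKM in L2C controls and 23.7 FPKM in matKO. Of the 8 genes, 6 reached 1 FPKM in some L2C control library and 7 in some L2C matKO library. The part of these markers in the result was not tested.

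At embryonic day 6.5 the 2 kinds of member parted. Of the 63 members absent before E2C, 55 were below 1 FPKM in every library of the 3 lineages and 0 were at 1 FPKM in all. Of the 87 present before, 49 were at 1 FPKM or more in every library and 26 below it in all. Snrpe was among the abundant ones, at 1075 to 2010 FPKM in epiblast, while Zbed3 was at 1.45 to 5.29 FPKM and Usp17ld was listed at 0 in all epiblast and visceral endoderm libraries. These are poly(A) libraries, and their levels cannot be set beside those of the total RNA libraries. Limma called 0 of 67 tested members in epiblast and 0 of 67 in visceral endoderm, against 0% and 0.00748% of all genes. At an unadjusted p under 0.05 there were 2 in epiblast (Gm26885 and Gm15452) of 306 genes, and 1 in visceral endoderm (Rn7s2) of 170 genes. With 1 control library, extraembryonic ectoderm allowed no test. For example, Mphosph6 measured 133 FPKM there in the control and 146 and 142 FPKM in matKO.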

How the data were processed

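Per the labels' protocols, total RNA was the input at the early stages (SMART-Seq Stranded kit) and poly(A) RNA at day 6.5 (SMART-Seq mRNA kit, then Nextera XT). The submitters' processing notes name Trim Galore 0.6.6, STAR 2.7.9, StringTie 2.1.7 and the mm10 build, which is GRCm38. The deposited values are FPKM, 1 column per library, made by the authors, whose treatment of multiply mapping reads and of strand is not given in the sources used here. In the deposited column of control epiblast replicate 1, whose unit was recorded as other, 1 value below 0 was set to 0. Every column was matched to a sample by its name.

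FPKM were analysed as log2(FPKM + 1), on which a change of a low gene is understated. Each stage was fitted alone with limma 3.58.1 in R 4.3.3 (eBayes with trend), on genes that reached 1 FPKM in 2 or more of the libraries fitted, with Benjamini-Hochberg adjustment over all genes tested and a threshold of 0.05. Epiblast and visceral endoderm were fitted together. Interactions between 2 stages used array weights by stage. Other steps used Python 3.11.15 with numpy 2.4.6, pandas 2.3.3 and matplotlib 3.10.9. On data simulated after the L2C libraries, 12105 genes were fitted, with 6 false calls. Of changes of 1 log2 unit 38.3% were recovered, and of changes of 2 log2 units 85.7%. After the E2C libraries these shares were 42.6% and 82.1%, with 6 false calls. For the change from E2C to L2C they were 24% and 71.3%, with 10 false calls. Only 185 of the genes fitted were changed in the L2C simulation, 189 in that of E2C and 190 in that of the interaction. In the real L2C libraries 4893 genes were called. The adjusted p depends on the share of changed genes, so these recoveries and false calls need not carry over to the real fits.

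The members and gene lists were chosen with earlier results of these data known. Genes named were the 10 members with the highest score once predicted and clone-named models were left out, and up to 8 members per direction in E2C and L2C and 4 per interaction with the largest called change, with no overlap of libraries within a stage and a group mean of at least 5 FPKM, predicted models being limited to 2 per direction and stage. All others were added after their values were seen. Positions and biotypes came from GENCODE M21, where 147 of the 150 identifiers matched, and promoters from RefSeq (GRCm38.p6).

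Same-numbered libraries were checked by the correlation of their deviations from the group means, which was -0.0978 to 0.1675 in the early stages, 0.603 in epiblast and 0.4436 in visceral endoderm. The labels do not say that numbers pair libraries, so the fits have no block. The alternatives tried were another pseudocount, no filter or a mean of at least 5 FPKM, other scalings, eBayes without trend, a replicate block, shared fits of all 26 early libraries, other cut-offs of the member list, and leaving out each library. The values of 1 member are counted in the totals but not reported here.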

Additional observations from a re-analysis of the deposited data

Results flagged for a closer look

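The difference between knockout and control was not the same at consecutive stages for some members, by the interaction test of limma with Benjamini-Hochberg adjustment. Between L1C and E2C this held for 2 members, of which Skap2 is named by the rule, with -0.78. Between E2C and L2C it held for 59 members. The named ones were Eif4a3l1 with 4.14, Eif4a3l2 with 2.93, Smco4 with 2.14 and Il12rb2 with 1.97, each on the log2(FPKM + 1) scale. No group held the 4 libraries that a check for single outlying libraries needs.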

How the results depend on the processing

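The counts of 76 members called higher in L2C and 59 with a positive E2C to L2C change stayed within 1.5 times under every alternative. No named gene reversed its direction. The 76 include 21 calls of members that passed the filter through matKO libraries. The count that avoids this, 55 of 88, was not rerun under the alternatives. The smaller counts moved, and for each of these the cause was not tested. Without a filter on low values, calls were 3 in FGO (5 as reported), 4 in MII (7), 8 in L1C (18), 1 higher and 3 lower in E2C (4 and 6) and 0 lower in L2C (2). With the replicate block they were 0 in FGO, 12 in MII, 1 higher in E2C, 1 lower in L2C and 1 for the change from L1C to E2C (2 as reported), and the block moved no other count by more than 1.5 times. With 1 spread for all 26 libraries they were 10 in L1C and 17 higher and 20 lower in E2C, and with stage weights 15 in FGO, 9 higher in E2C and 1 lower in L2C. Among the top 100 members, calls were 1 in FGO, 2 in MII, 6 in L1C, 1 lower in E2C, 0 lower in L2C and 1 from L1C to E2C. Among the top 200 they were 4 lower in L2C. TPM scaling and eBayes without trend gave 1 lower in L2C, and TPM scaling, a mean of at least 5 FPKM and no array weights gave 1 from L1C to E2C.

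The median L2C difference of 0.63 became 1.09 with a pseudocount of 0.1, 0.94 with a mean of at least 5 FPKM, 0.95 with TPM scaling, which also moved the median of all genes to 0.15, and 0.76 in the top 100 members. Leaving out single libraries gave 1 to 12 calls in FGO, 2 to 10 in MII, 5 to 23 in L1C, 1 to 4 higher and 5 to 7 lower in E2C, 54 to 76 higher and 0 to 2 lower in L2C, 0 to 2 from L1C to E2C, 49 to 58 positive and 0 to 1 negative from E2C to L2C, and 0 in epiblast and visceral endoderm. The median ranged from -0.20 to 0.0122 in E2C, reversed to 0.0122 without matKO replicate 2, and from 0.54 to 0.68 in L2C. Of the named genes that were called, 21 of 29 in L2C, 4 of 10 in E2C and all 4 from E2C to L2C kept their call wherever they were refitted, and Snrpd3 passed the test in L2C with 1 spread for all libraries (-0.41, adjusted p = 0.0137, limma). The unknown depth and the shared sequence of copies limit what low members can show.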
